A study of Mus musculus with 16 samples.

Results

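The unfolded protein response and the integrated stress response were followed in the brain through 33 genes: transcription factors and their feedback regulators, enzymes of amino acid and one-carbon supply, the sensors of the endoplasmic reticulum (ER), and the ER proteins that fold, secrete or degrade their clients. The members were listed by symbol and mapped to Ensembl gene IDs of the deposited expression table, which holds 33289 genes. All 33 were in the table. All 33 also passed a filter on low values (at least 0.5 RPKM, read counts scaled to transcript length and library size, in at least 3 libraries), which left 17349 genes for testing.

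The ER folds secreted and membrane proteins, and unfolded protein inside it activates the sensors IRE1 (encoded by Ern1), PERK (encoded by Eif2ak3) and ATF6. IRE1 splices the mRNA of the transcription factor XBP1, ATF6 is cleaved to release a transcription factor, and both raise ER chaperones and the machinery that degrades misfolded protein. PERK belongs to a set of kinases that phosphorylate the translation factor eIF2, which slows translation in general while the transcription factor ATF4 is translated more; that arm, shared with responses to amino acid shortage and viral RNA, is the integrated stress response. In brain, both are known from ischaemia, inflammation and neurodegeneration. Gene-level RNA shows the amount of each transcript and does not show splicing, cleavage or phosphorylation.

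The mice were of strain C57BL/6J and 3 to 4 months old, and the tissue was a hemi-brain taken after perfusion with PBS, 8 h after an injection. One group was wild type and received saline, and a second was wild type and received lipopolysaccharide (LPS), a bacterial cell wall component that activates innate immunity. Another group, labelled Lcn2-/-, for the gene of the secreted iron-carrier binding protein lipocalin-2, received saline, and the fourth carried the same label and received LPS. Each group had 4 libraries, 16 in all, numbered here 1 to 4 within a group; the numbers pair no samples. The sources used here give neither the dose and route of the injection nor the way the allele was made.

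Lcn2 itself lay between 0.0650 and 0.351 RPKM in the 8 saline libraries. After LPS it lay between 66.7 and 82.7 RPKM in wild type and between 34.1 and 40.2 RPKM in the libraries labelled Lcn2-/-, so a transcript assigned to the targeted gene was present under that label, and the genotype is written as labelled throughout. Summed marker RPKM of neurons (741 to 814), oligodendrocytes (791 to 920) and astrocytes (484 to 622) were high in all 16 libraries, as the tissue label says. Saline library 4 labelled Lcn2-/- stood apart, with 17112 genes at 0.5 RPKM or above against 16372 to 16497 in the other 15, and counts without it are given with the other single-library values below. It is also the library whose title alone ends in a letter, and the series' own text gives 3 to 4 replicates a group where 4 samples are listed. Depth is unknown, since the table gives no read counts.

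More members were called higher than lower after LPS under both genotype labels. By sign alone, 15 of the 33 log2 changes were above 0 in wild type and 25 under the Lcn2-/- label. In wild type, 11 of the 33 were higher after LPS and 3 lower (limma, adjusted p under 0.05 over all genes tested), where 25.3% of all genes tested were called, 11.4% higher and 13.9% lower. Among mice labelled Lcn2-/-, 19 were higher and 4 lower, where 48.3% of all genes were called, 20.7% higher and 27.7% lower. The median log2 change of the members was -0.021 in wild type against -0.025 over all genes, and 0.14 under the Lcn2-/- label against -0.028 over all genes. Removing trends with GC content and transcript length moved the split of all genes called in wild type from 45.1% to 55.4% higher and left the members at 11 higher and 3 lower. Under the Lcn2-/- label that setting added Psat1 and Syvn1 as higher and lost the fall of Sel1l. Between the labels after LPS it added Sesn2, Hyou1 and Dnajc3 as higher.

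A group of 9 members rose under both labels: Atf3, Ppp1r15a, Sesn2, Mthfd2, Eif2ak3, Atf6, Xbp1, Dnajb9 and Herpud1. Phgdh and Edem1 fell under both. A further 10, of which 8 are ER folding genes, passed as higher under the Lcn2-/- label and not in wild type: Trib3, Asns, Hspa5, Hsp90b1, Hyou1, Dnajc3, Calr, Pdia3, Pdia6 and Manf. Calls were more frequent under that label over all genes tested too, at 48.3% against 25.3% in wild type. The share of all genes with each pattern of calls was not counted. Ern1 rose in wild type and fell under the Lcn2-/- label. Psat1 passed as higher and Creld2 as lower in wild type, and Sel1l passed as lower under the Lcn2-/- label. The other 8 passed in neither comparison: Atf4, Ddit3, Chac1, Shmt2, Sdf2l1, Canx, Pdia4 and Syvn1. In bulk tissue, a change in the number of cells of a type and a change in RNA per cell cannot be told apart.

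A threshold passed under one label and missed under the other is no test of a difference, so the difference between the LPS effects was tested as the interaction of genotype label and injection. It passed for 8 members, 7 with a larger effect under the Lcn2-/- label (Atf3, Ppp1r15a, Hspa5, Hsp90b1, Pdia3, Pdia6 and Manf) and 1 with a smaller one (Ern1), where 8.82% of all genes passed, 3.90% with a larger effect and 4.92% with a smaller one. After LPS, 13 members were higher under the Lcn2-/- label than in wild type and 1 was lower, where 15.8% of all genes were called, 7.04% higher and 8.74% lower. After saline, 0 of 33 members differed by limma at the adjusted threshold, where 0.0461% of all genes were called (0.0346% higher, 0.0115% lower), and 2 members had an unadjusted p under 0.05. These were Shmt2, at a log2 difference of -0.15 (SE 0.067, adjusted p = 0.439), and Xbp1, at 0.11 (SE 0.053, adjusted p = 0.454).

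Single libraries moved these counts. Without wild type LPS library 4, the number of members higher in wild type was 7 in place of 11, and without wild type LPS library 3 the number lower was 5 in place of 3. Without LPS library 3 labelled Lcn2-/-, the number higher than wild type after LPS was 8 in place of 13, and the number that fell with LPS under that label was 2 in place of 4. Without saline library 4 labelled Lcn2-/-, the interaction passed for 9 members in place of 7 with a larger effect, and after LPS 15 members were higher and 3 lower than wild type. The number that fell with LPS was then 4 in place of 3 in wild type and 3 in place of 4 under the Lcn2-/- label. The share of all genes moved too: for the comparison of the labels after LPS it was 29.9% without that saline library and 8.73% without LPS library 3 labelled Lcn2-/-, and for the interaction 13.2% and 4.51%. Over all genes, 1676 were higher in wild type without wild type LPS library 4, against 1980 with all libraries. Without wild type LPS library 3, 2223 were lower in wild type, against 2409. Under the Lcn2-/- label 4193 fell without LPS library 3 of that label, against 4798. Without saline library 4 labelled Lcn2-/-, 34.9% of all genes were called with LPS in wild type, against 25.3%. Under the Lcn2-/- label it was 49.0%, against 48.3%.

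**Figure D1:**
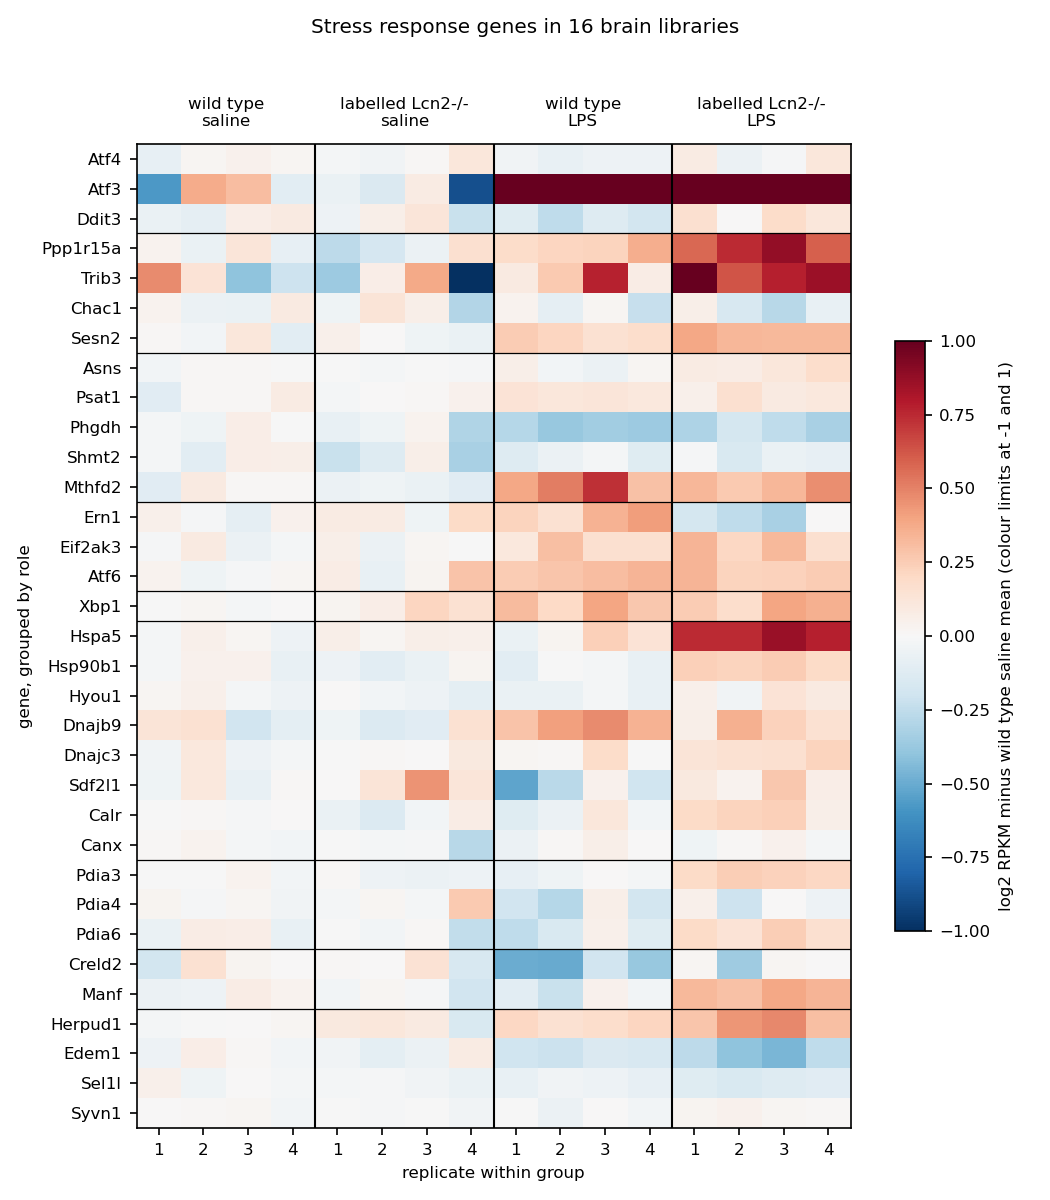
Log2 RPKM of the 33 genes (rows, grouped by role and divided by lines) in the 16 libraries (columns, by group and replicate), each minus the mean of the wild type saline libraries. Colours stop at -1 and 1; Atf3 reaches the upper limit or lies close to it in the 8 LPS libraries, and Hspa5 is reddest in the 4 LPS libraries labelled Lcn2-/-.

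Among the transcription factors of the integrated stress response, Atf3, a stress-induced repressor and activator, changed most of all 33 members. In wild type saline libraries 1 to 4 its level was 0.226, 0.433, 0.415 and 0.312 RPKM, and in the saline libraries labelled Lcn2-/- it was 0.321, 0.303, 0.355 and 0.183 RPKM. After LPS the wild type libraries had 0.751, 0.668, 0.671 and 0.746 RPKM, and those labelled Lcn2-/- had 2.34, 2.17, 3.10 and 1.996 RPKM. Each LPS group lay above its saline group without overlap, and every LPS library labelled Lcn2-/- lay above every wild type LPS library. The log2 change was 1.08 (SE 0.23, adjusted p = 0.00213) in wild type and 3.07 (SE 0.23, adjusted p = 2.72e-08) under the Lcn2-/- label. The difference between these effects was 1.99 (95% confidence interval 1.31 to 2.68, adjusted p = 0.00288). At so low a level the size depends on the scale: with 0.5 added to every RPKM the wild type change was 0.52, that under the Lcn2-/- label 1.87 and their difference 1.35, all 3 still called.

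Atf4 and Ddit3, by contrast, passed in neither LPS comparison. Atf4, the central factor of the response and regulated above all at translation, was among the more abundant members at 56.5 ± 2.11 (SD, n = 4) RPKM in wild type saline and 57.8 ± 3.24 RPKM after LPS under the Lcn2-/- label. LPS and saline overlapped under each label, and the labels overlapped after each injection. Ddit3, which encodes the death-associated factor CHOP, was 14.4 ± 0.625 RPKM after LPS in wild type and 17.6 ± 0.949 RPKM after LPS under the Lcn2-/- label (n = 4 each), and those groups did not overlap (log2 difference 0.29, SE 0.067, adjusted p = 0.0104). After saline it was 16.3 ± 1.03 RPKM in wild type and 16.1 ± 1.63 RPKM under the Lcn2-/- label. The wild type LPS and saline groups did not overlap. With LPS, its fall in wild type passed without saline library 4 labelled Lcn2-/- (-0.17, adjusted p = 0.0177). That fall also passed with no filter and in a fit of only the groups compared (adjusted p 0.0464 at most). Its rise under the Lcn2-/- label passed without saline library 3 of that label (0.18, adjusted p = 0.0361). Its interaction missed the threshold at an adjusted p of 0.0538 and passed without any one of saline libraries 2, 3 and 4 labelled Lcn2-/- (adjusted p 0.0313 to 0.0496). The interaction also passed with a filter at a log2 RPKM of at least 1 in at least 4 samples (adjusted p = 0.0471). Exons of Ddit3 overlap Mars on the opposite strand; the sources used here do not say whether reads were counted by strand, so reads of such pairs may be split or shared.

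The amino acid response element, a site bound by ATF4 dimers, was searched as TGATGNAAN on both strands of the RefSeq promoter windows, 250 bases before to 50 after each start. RefSeq windows were found for 30 of the 33 members. The element's letters occurred for 5 of them, Atf3, Trib3, Chac1, Asns and Herpud1, and in 3.95% of all 32851 windows. The stretch upstream of the Atf3 start used by RefSeq is shown because Atf3 changed most. It lies at chr1:191183341-191183583 on the minus strand of GRCm38.p6, the build of the RefSeq windows, and the match falls in an intron of 1 of the 3 GENCODE models of the gene. Capitals mark the fixed letters of the match, which reads on the opposite strand and begins 111 bases before the start.
Atf3 upstream: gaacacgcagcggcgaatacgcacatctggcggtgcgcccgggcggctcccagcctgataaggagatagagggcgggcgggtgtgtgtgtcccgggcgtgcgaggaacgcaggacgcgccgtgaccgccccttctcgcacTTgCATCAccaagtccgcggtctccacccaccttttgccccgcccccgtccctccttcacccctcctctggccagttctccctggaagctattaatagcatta
Of the 5 genes with a match, 4 rose with LPS under the Lcn2-/- label (all but Chac1) and 2 in wild type (Atf3 and Herpud1). Of the 25 members with a window and no match, 12 rose under that label and 8 in wild type. Over all genes tested, 20.7% rose under that label and 11.4% in wild type. Genes outside the members whose windows hold these letters were not examined.

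Of 4 feedback regulators, 2 rose in wild type and 3 under the Lcn2-/- label. Ppp1r15a, whose product GADD34 directs a phosphatase to eIF2 and so ends the response, had 4.09, 3.81, 4.33 and 3.77 RPKM in wild type saline and 3.32, 3.56, 3.84 and 4.46 RPKM in saline labelled Lcn2-/-. After LPS it had 4.53, 4.63, 4.66 and 5.14 RPKM in wild type and 5.93, 6.68, 7.33 and 6.05 RPKM under the Lcn2-/- label. The LPS groups overlapped neither their saline groups nor each other. The log2 change was 0.78 (SE 0.087, adjusted p = 2.96e-06) under the Lcn2-/- label, and its difference from the wild type effect was 0.53 (95% interval 0.27 to 0.80, adjusted p = 0.0183). The wild type change of 0.25 (SE 0.087, adjusted p = 0.0498) lay at the threshold: it was lost without wild type saline library 1, 2 or 4, without any 1 of the 4 wild type LPS libraries, without saline library 2 or 3 or LPS library 2 or 4 labelled Lcn2-/- (adjusted p 0.0544 to 0.145), and in 2 of the other settings. Exons of Ppp1r15a overlap Tulp2 on the opposite strand.

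Trib3, a pseudokinase that restrains ATF4, was the least abundant member. Its level in wild type was 0.700, 0.555, 0.383 and 0.437 RPKM after saline and 0.539, 0.605, 0.860 and 0.531 RPKM after LPS, and these groups overlapped. Under the Lcn2-/- label it was 0.392, 0.528, 0.655 and 0.170 RPKM after saline and 1.05, 0.781, 0.864 and 0.914 RPKM after LPS, with no overlap. The log2 change there was 1.20 (SE 0.33, adjusted p = 0.00679), or 0.61 with 0.5 added to every RPKM, and its interaction did not pass (0.91, 95% interval -0.077 to 1.89, adjusted p = 0.209). Sesn2, a stress-induced brake on the growth kinase complex mTORC1, rose from 2.92 ± 0.185 to 3.35 ± 0.108 RPKM in wild type and from 2.88 ± 0.105 to 3.69 ± 0.0823 RPKM under the Lcn2-/- label (n = 4 each; adjusted p = 0.00801 and 3.71e-05). Chac1, an enzyme that degrades glutathione, stayed between 4.22 and 5.64 RPKM in all 16 libraries, with log2 changes of -0.064 and -0.075 that did not pass.

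The 5 enzymes of serine, one-carbon and asparagine supply, which ATF4 is known to induce, did not move as a block. Mthfd2, a mitochondrial folate enzyme, rose from 2.68 ± 0.153 to 3.76 ± 0.506 RPKM in wild type and from 2.55 ± 0.0534 to 3.41 ± 0.204 RPKM under the Lcn2-/- label (n = 4 each; log2 changes 0.48 and 0.42, SE 0.079 each, adjusted p = 0.000255 and 0.000482). Phgdh, the first enzyme of serine synthesis, went the other way. It fell by 0.34 on the log2 scale in wild type (SE 0.060, adjusted p = 0.000416) and by 0.17 under the Lcn2-/- label (SE 0.060, adjusted p = 0.0284), where LPS and saline libraries overlapped. That second call was lost without saline library 1, 2 or 3 or LPS library 1, 3 or 4 labelled Lcn2-/- (adjusted p 0.0505 to 0.0947) and at an adjusted p of 0.102 when the other 2 groups were left out of the fit.

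Asns, asparagine synthetase, rose under the Lcn2-/- label from 26.6 ± 0.159 to 29.0 ± 0.962 RPKM (log2 change 0.12, SE 0.031, adjusted p = 0.00375) while its wild type change was -0.0016 (SE 0.031). After LPS it was higher under the Lcn2-/- label by 0.11 (adjusted p = 0.0215), a call lost without wild type LPS library 2 or 3 or LPS library 3 or 4 labelled Lcn2-/- (adjusted p 0.0555 to 0.0706). Psat1, the next enzyme of serine synthesis, rose by 0.12 in wild type (SE 0.036, adjusted p = 0.0225) and had 0.090 under the Lcn2-/- label (SE 0.036, adjusted p = 0.0526). The difference between the Psat1 effects was -0.031, with a 95% interval from -0.14 to 0.079. The Psat1 call in wild type was lost without wild type saline library 1 or wild type LPS library 1 (adjusted p 0.0673 at most), and under the Lcn2-/- label it was gained without wild type saline library 1 or 4, or without saline library 4 or LPS library 1 labelled Lcn2-/- (adjusted p 0.0384 at most). Shmt2, a mitochondrial serine enzyme, had log2 changes of -0.082 and 0.076, and the latter passed without saline library 3 labelled Lcn2-/- (0.15, adjusted p = 0.0424). None of the 5 passed the interaction.

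The 3 sensors and Xbp1 rose in wild type, and Ern1 was the 1 member called in opposite directions under the labels. Wild type libraries had 1.11, 1.07, 1.01 and 1.11 RPKM of Ern1 after saline and 1.25, 1.19, 1.37 and 1.44 RPKM after LPS. Libraries labelled Lcn2-/- had 1.13, 1.13, 1.04 and 1.23 RPKM after saline and 0.950, 0.899, 0.858 and 1.07 RPKM after LPS. The wild type LPS libraries were the highest, except that library 2 lay below saline library 4 labelled Lcn2-/-. Under that label, LPS library 4 overlapped the saline range. The log2 changes were 0.29 (SE 0.091, adjusted p = 0.0300) and -0.27 (SE 0.091, adjusted p = 0.0249), and their difference was -0.55 (95% interval -0.83 to -0.28, adjusted p = 0.0192).

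The interaction of Ern1 held in all 23 alternatives in which it was tested, and the separate changes were less firm. The rise was lost without wild type saline library 2 or 3 or wild type LPS library 3 or 4 (adjusted p 0.0631 to 0.101). The fall was lost without saline library 4, LPS library 2 or LPS library 3 labelled Lcn2-/- (adjusted p 0.0568 to 0.0786) and at 0.0807 when the wild type groups were left out of the fit. Eif2ak3 rose from 2.82 ± 0.129 to 3.20 ± 0.195 RPKM in wild type (adjusted p = 0.0307) and from 2.83 ± 0.0976 to 3.38 ± 0.203 RPKM under the Lcn2-/- label (adjusted p = 0.00229). Its wild type call was lost without wild type saline library 1, 3 or 4 or wild type LPS library 2 or 4 (adjusted p 0.0545 to 0.111).

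Atf6 rose by 0.29 (SE 0.060, adjusted p = 0.00160) and 0.18 (SE 0.060, adjusted p = 0.0204) on the log2 scale in wild type and under the Lcn2-/- label. The second was lost without saline library 2 or 3 or LPS library 1 of that label (adjusted p 0.0526 to 0.0698) and at 0.0876 when the wild type groups were left out. Xbp1 reached nearly the same level after LPS under both labels, 23.3 ± 1.35 and 23.3 ± 1.59 RPKM (n = 4 each), from 19.0 ± 0.242 RPKM in wild type saline and 20.6 ± 1.22 RPKM in saline labelled Lcn2-/-. Between the LPS groups the log2 difference was 0.00016, with a 95% interval from -0.11 to 0.11. The rises were 0.29 in wild type (adjusted p = 0.000591) and 0.18 under the Lcn2-/- label (adjusted p = 0.0114), where LPS and saline overlapped. These totals do not separate the spliced form of Xbp1 from the unspliced one.

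**Figure D2:**
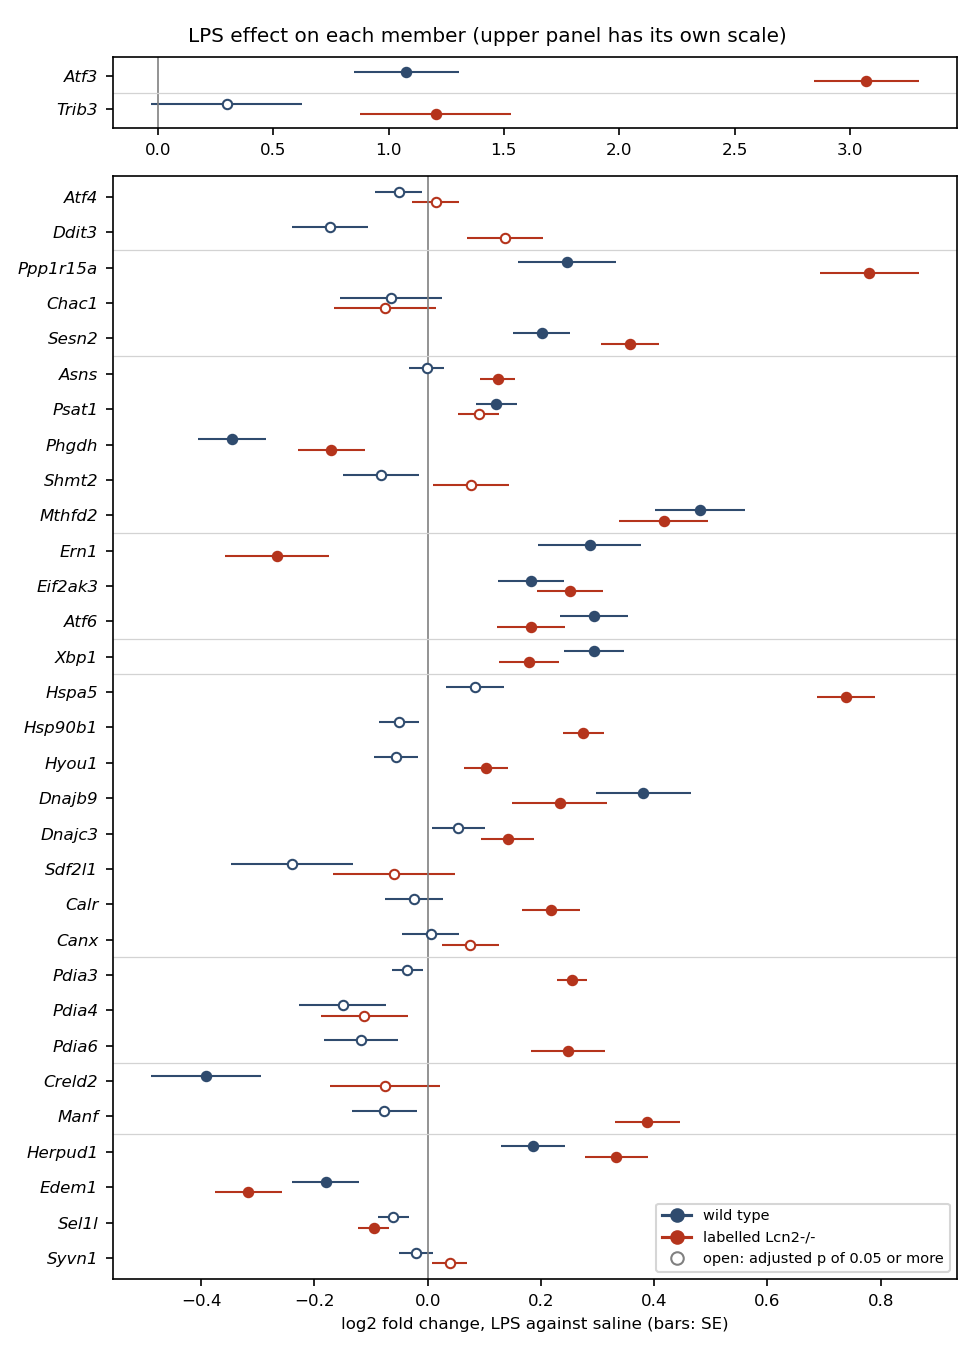
Log2 change after LPS against saline for each of the 33 genes in wild type (blue) and under the Lcn2-/- label (red), with bars for the standard error and filled circles for an adjusted p under 0.05; Atf3 and Trib3 have a panel with its own scale. The red point lies to the right of the blue one for 24 of the 33 genes, and Ern1 has the widest gap to the left.

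Across the 33 members, the LPS effect under the Lcn2-/- label exceeded that in wild type for 24, among them 12 of the 13 ER folding genes (8 chaperones and co-chaperones, 3 disulfide isomerases and 2 secreted factors), Dnajb9 being the exception. The 2 sets of effects come from different libraries and had a Pearson r of 0.77 and a Spearman rho of 0.61 over 33 genes. Without Atf3 these were 0.51 and 0.57 over 32. The median difference between the effects was 0.15 over the 33 members and -0.0026 over all genes tested. The share of all genes with a larger effect under that label, and the correlation over all genes, were not calculated. Genes are not independent replicates, and the values are a description.

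Of the ER chaperones, Hspa5 changed most under the Lcn2-/- label. It encodes BiP, the Hsp70 chaperone that holds the sensors inactive until unfolded protein draws it away. Wild type libraries had 38.9, 40.9, 39.9 and 38.0 RPKM after saline and 37.6, 40.2, 46.5 and 43.4 RPKM after LPS, and these overlapped. Libraries labelled Lcn2-/- had 41.0, 39.9, 41.1 and 40.8 RPKM after saline and 66.3, 66.1, 71.8 and 67.5 RPKM after LPS. The 4 LPS libraries labelled Lcn2-/- thus stood above all 12 others. Under that label the rise was 66.8% (log2 0.74, SE 0.051, adjusted p = 1.26e-08), against 6.00% in wild type (log2 0.084, SE 0.051, adjusted p = 0.265). The difference between the effects was 0.65 (95% interval 0.50 to 0.81, adjusted p = 0.000231) and was called in all 24 alternatives. The wild type change passed without wild type LPS library 1 (0.13, adjusted p = 0.0454).

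Hsp90b1, which encodes the ER chaperone GRP94, had the same pattern at a smaller size. Its level was 69.1, 72.3, 72.3 and 66.7 RPKM in wild type saline, 65.0, 69.9, 69.2 and 66.6 RPKM in wild type LPS, and 67.6, 65.1, 67.1 and 71.5 RPKM in saline labelled Lcn2-/-. After LPS under that label it was 82.8, 81.9, 83.3 and 79.9 RPKM, above all other libraries. The log2 changes were -0.050 (SE 0.036) in wild type and 0.27 (SE 0.036, adjusted p = 1.47e-05) under the Lcn2-/- label. Their difference was 0.33 (95% interval 0.22 to 0.43, adjusted p = 0.00248). Hsp90b1 shares exon sequence with 3 small annotated genes, so a part of its reads could be assigned elsewhere.

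The ER stress response element, CCAAT and CCACG with 9 bases of any kind between them, is the site at which ATF6 with the factor NF-Y is known to act on chaperone genes. Its fixed letters occurred on either strand in the windows of 8 of the 30 members matched, and in 0.119% of all 32851 windows. They are set out below to show the letters these genes share, with capitals for the fixed letters; each is written in the direction of transcription of its gene, so a match on the opposite strand begins with CGTGG. The places are chr2:34772025-34772043 for Hspa5, chr10:86705638-86705656 and chr10:86705533-86705551 for Hsp90b1, chr14:118937827-118937845 for Dnajc3, chr8:84847075-84847093 for Calr, chr11:50325800-50325818 for Canx, chr12:17266491-17266509 for Pdia6, chr15:88819520-88819538 for Creld2 and chr19:6046532-6046550 for Syvn1. Those of Hsp90b1, Calr and Canx are on the minus strand, and the others are on the plus strand.
Hspa5: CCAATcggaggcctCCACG
Hsp90b1 site far: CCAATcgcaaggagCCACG
Hsp90b1 site near: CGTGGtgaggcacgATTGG
Dnajc3: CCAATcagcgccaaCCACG
Calr: CGTGGtcgaccctcATTGG
Canx: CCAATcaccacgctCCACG
Pdia6: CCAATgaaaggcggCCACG
Creld2: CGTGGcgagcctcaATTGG
Syvn1: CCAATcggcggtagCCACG
The Hspa5 match begins 65 bases before the RefSeq start and falls in an exon of 1 of the 6 GENCODE models of the gene; the rest lie upstream of every model of their gene.

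Hsp90b1 held 2 matches, and the stretch that carries them, chr10:86705510-86705694 on the minus strand, is printed with both in capitals. They begin 212 and 107 bases before the start.
Hsp90b1 upstream: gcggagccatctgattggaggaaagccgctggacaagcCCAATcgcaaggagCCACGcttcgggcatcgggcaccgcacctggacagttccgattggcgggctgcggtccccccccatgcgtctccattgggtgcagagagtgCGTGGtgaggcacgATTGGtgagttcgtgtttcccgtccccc
Of the 8 genes with the element, 5 rose with LPS under the Lcn2-/- label (Hspa5, Hsp90b1, Dnajc3, Calr and Pdia6) and 0 in wild type, where Creld2 fell. Of the 22 members with a window and no match, 11 rose and 4 fell under the Lcn2-/- label, and 10 rose and 2 fell in wild type. Over all genes tested, 20.7% rose and 27.7% fell under that label, and 11.4% rose and 13.9% fell in wild type. Genes outside the members whose windows hold the element were not examined. A match is a run of letters and not evidence of binding, and 3 members (Atf6, Manf and Hyou1) had no window in the table.

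Under the Lcn2-/- label the other chaperones changed less than Hspa5, while in wild type Dnajb9 was the 1 chaperone gene that rose. Calr, the calcium-binding lectin chaperone calreticulin, rose by 0.22 on the log2 scale under the Lcn2-/- label (SE 0.052, adjusted p = 0.00280), from 71.6 ± 4.36 to 83.3 ± 4.57 RPKM, with overlap. After LPS it was higher there than in wild type by 0.20 (adjusted p = 0.0159), a call lost without wild type LPS library 1 or without LPS library 3 labelled Lcn2-/- (adjusted p 0.0561 and 0.0578). Its interaction missed at 0.0511 and passed without saline library 4 or LPS library 4 labelled Lcn2-/- or wild type LPS library 3 (adjusted p 0.0150 to 0.0278), and in 3 processing settings (adjusted p 0.0450 to 0.0495). Canx, its membrane-bound partner calnexin, had log2 changes of 0.0054 and 0.076 that did not pass.

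Dnajc3, a co-chaperone that also inhibits eIF2 kinases, rose under the Lcn2-/- label from 13.2 ± 0.439 to 14.6 ± 0.405 RPKM (log2 0.14, SE 0.046, adjusted p = 0.0201), a call lost without LPS library 4 of that label (adjusted p = 0.0611). Hyou1, the ER chaperone GRP170, rose by 0.10 (SE 0.039, adjusted p = 0.0417), and this call was lost in 10 of 25 alternatives, among them the removal of any 1 of saline libraries 2, 3 and 4 or LPS libraries 1, 3 and 4 labelled Lcn2-/- or of wild type LPS libraries 1, 2 and 4 (adjusted p 0.0507 to 0.139). Dnajb9, a BiP co-chaperone induced through XBP1, rose in wild type from 16.1 ± 1.88 to 20.9 ± 1.16 RPKM (log2 0.38, SE 0.084, adjusted p = 0.00308). Its rise of 0.23 under the Lcn2-/- label (adjusted p = 0.0326) was lost without saline library 1, 2 or 3 or LPS library 2 or 3 of that label (adjusted p 0.0581 to 0.108).

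Sdf2l1, a partner of the ER Hsp40 proteins, passed in neither LPS comparison, nor did its interaction pass (0.18, adjusted p = 0.452). After saline it lay at 4.48 ± 0.243 RPKM in wild type and 5.09 ± 0.706 RPKM under the Lcn2-/- label. It lay at 3.83 ± 0.621 RPKM in wild type LPS and 4.87 ± 0.365 RPKM in LPS labelled Lcn2-/- (n = 4 each), and the difference of 0.36 (SE 0.11, adjusted p = 0.0348) was lost on leaving out any 1 of the 8 LPS libraries except wild type LPS library 3 (adjusted p 0.0507 to 0.110). Without that library the fall in wild type passed (-0.33, adjusted p = 0.0255).

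Pdia3 and Pdia6, oxidoreductases that form and rearrange disulfide bonds in the ER, repeated the pattern of Hspa5, and Pdia4 did not. Pdia3 had 47.6, 47.6, 48.8 and 46.7 RPKM in wild type saline, 45.0, 46.4, 47.7 and 47.0 RPKM in wild type LPS, and 48.1, 46.1, 45.7 and 46.1 RPKM in saline labelled Lcn2-/-. In LPS labelled Lcn2-/- it had 54.3, 56.6, 55.9 and 55.1 RPKM. These last 4 lay above all others by more than the spread within any group, and Pdia3 had the smallest standard error of the members that rose. Its effects were -0.036 and 0.25 (SE 0.027 each), with a difference of 0.29 (95% interval 0.21 to 0.37, adjusted p = 0.000898).

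Pdia6 had 16.5, 18.2, 18.1 and 16.4 RPKM in wild type saline and 14.5, 15.6, 17.9 and 15.9 RPKM in wild type LPS. Under the Lcn2-/- label it had 17.3, 16.9, 17.5 and 14.6 RPKM after saline and 19.7, 19.0, 20.4 and 19.3 RPKM after LPS, above all 12 other libraries. The difference between the effects was 0.37 (95% interval 0.17 to 0.56, adjusted p = 0.0261) and missed the threshold without wild type saline library 3, wild type LPS library 1 or LPS library 3 labelled Lcn2-/- (adjusted p 0.0570 to 0.0594). Pdia4 had log2 changes of -0.15 (SE 0.077, adjusted p = 0.180) and -0.11 (SE 0.077, adjusted p = 0.243). Without wild type LPS library 3, the highest of its group at 7.62 RPKM, the first passed as a fall (-0.22, adjusted p = 0.0365). Exons of Pdia3 overlap Catsper2 and those of Pdia6 overlap Atp6v1c2, each on the opposite strand.

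Manf and Creld2 encode small proteins that are released from stressed ER, and Manf is known as a factor that protects neurons. Manf had 8.32, 8.37, 9.11 and 8.91 RPKM in wild type saline and 8.08, 7.45, 8.95 and 8.51 RPKM in wild type LPS. Under the Lcn2-/- label it had 8.52, 8.80, 8.61 and 7.58 RPKM after saline and 10.8, 10.6, 11.3 and 11.0 RPKM after LPS. Here too the LPS libraries labelled Lcn2-/- lay above the 12 others. The effects were -0.076 (SE 0.058) and 0.39 (SE 0.058, adjusted p = 5.62e-05), and their difference was 0.46 (95% interval 0.29 to 0.64, adjusted p = 0.00470), called in all 24 alternatives. Manf shares exon sequence with Dcaf1, Rbm15b and an antisense gene.

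Creld2 had its change in wild type. It had 7.87, 9.95, 9.15 and 8.99 RPKM after saline and 6.37, 6.32, 7.85 and 6.88 RPKM after LPS, a fall by 0.39 on the log2 scale (SE 0.097, adjusted p = 0.00695). Under the Lcn2-/- label it had 9.02, 8.97, 9.89 and 8.00 RPKM after saline and 9.06, 7.01, 9.09 and 9.01 RPKM after LPS, which overlapped. The interaction did not pass (0.32, 95% interval 0.023 to 0.61, adjusted p = 0.148). The difference after LPS of 0.31 (adjusted p = 0.0398) was lost in 10 of 25 alternatives, 8 of them the removal of 1 library: wild type saline 4, saline 1 labelled Lcn2-/-, wild type LPS 1, 2 or 4, or LPS 1, 3 or 4 labelled Lcn2-/- (adjusted p 0.0501 to 0.115).

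**Figure D3:**
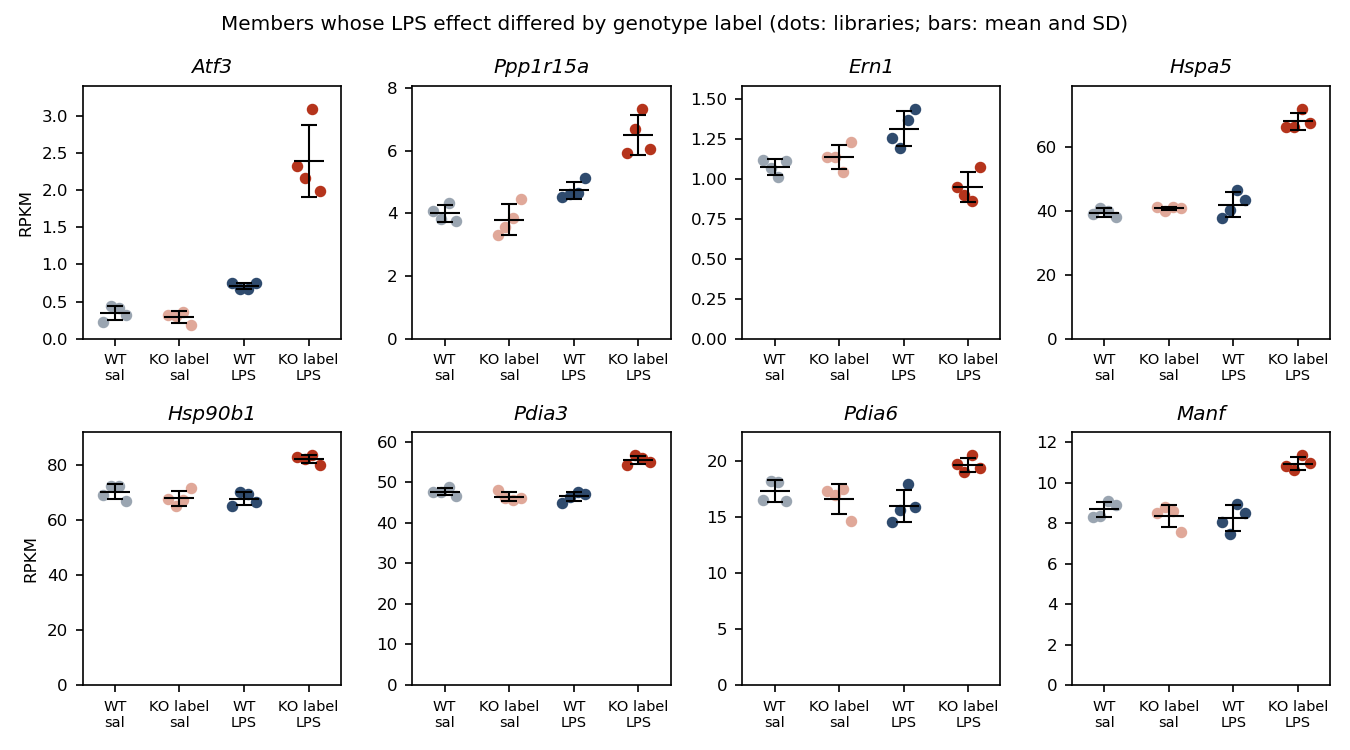
RPKM of the 8 genes whose LPS effect differed between the genotype labels, by group (WT, wild type; KO label, labelled Lcn2-/-; sal, saline); dots are libraries and bars the mean and SD of 4. All vertical axes start at 0, and for every gene except Ern1 the 4 LPS libraries labelled Lcn2-/- are above the 12 others. The genes were picked by the interaction in these same libraries, so this separation follows in part from the choice. The share of all genes separated in this way was not counted.

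The genes of ER-associated degradation, which returns misfolded protein to the cytosol for the proteasome, went in both directions. Herpud1, a membrane adaptor of the retrotranslocation complex, had 19.1, 19.4, 19.5 and 19.7 RPKM in wild type saline and 22.4, 21.5, 21.9 and 22.6 RPKM in wild type LPS. It had 20.8, 21.0, 20.7 and 17.5 RPKM in saline and 23.5, 26.3, 27.1 and 23.9 RPKM in LPS labelled Lcn2-/-. LPS and saline did not overlap under either label, and the log2 changes were 0.19 (SE 0.056, adjusted p = 0.0213) and 0.33 (SE 0.056, adjusted p = 0.000166). The first was lost without wild type LPS library 1 or 4 (adjusted p 0.0516 and 0.0582). After LPS the level was higher under the Lcn2-/- label by 0.19 (adjusted p = 0.0341), which was lost without any 1 wild type LPS library or LPS library 2 or 3 labelled Lcn2-/- (adjusted p 0.0507 to 0.115).

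Herpud1 was the 1 member whose window held ERSE-II, a shorter element with ATTGG and CCACG 1 base apart, found in 0.0365% of all windows, and it also held the amino acid response element. Its upstream stretch, chr8:94386179-94386428 on the plus strand, is printed because both response elements occur in it, each upstream of every GENCODE model of the gene. In capitals are the fixed letters of the amino acid response element, on the opposite strand from 113 bases before the start, and then of ERSE-II, from 52 bases before it.
Herpud1 upstream: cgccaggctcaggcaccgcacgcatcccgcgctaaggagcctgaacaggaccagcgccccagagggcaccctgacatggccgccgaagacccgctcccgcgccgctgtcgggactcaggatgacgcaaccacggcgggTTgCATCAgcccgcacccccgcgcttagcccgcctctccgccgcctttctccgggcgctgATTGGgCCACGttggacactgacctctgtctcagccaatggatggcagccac
Another element, TGACGTGG, known as a site of XBP1, was in no member's window and in 0.676% of all windows.

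Edem1, a lectin-like protein that extracts glycoproteins from the folding cycle, fell under both labels, from 2.66 ± 0.0912 to 2.35 ± 0.0540 RPKM in wild type and from 2.61 ± 0.146 to 2.10 ± 0.146 RPKM under the Lcn2-/- label (n = 4 each; log2 -0.18 and -0.32, SE 0.059 each, adjusted p = 0.0353 and 0.000428). The wild type call was lost without wild type saline library 2, 3 or 4 or wild type LPS library 1, 2 or 4 (adjusted p 0.0571 to 0.101). Sel1l, the adaptor of the ubiquitin ligase HRD1, fell by 0.095 under the Lcn2-/- label (SE 0.027, adjusted p = 0.00930), and this was lost at an adjusted p of 0.0795 with GC and length trends removed. Syvn1, which encodes HRD1 itself, stayed between 6.18 and 6.62 RPKM in all 16 libraries and passed nowhere, except with GC and length trends removed (0.12, adjusted p = 0.00615).

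Within 3 of the 4 groups, 1 library held the highest level of most ER folding genes. Wild type LPS library 3 held the highest level of its group for 12 of the 13 ER folding genes, all but Hsp90b1, and for 28.7% of all genes tested. Wild type saline library 2 did so for 10 of 13 (21.3% of all genes), and LPS library 3 labelled Lcn2-/- for 9 of 13 (22.2% of all genes). In the group that holds saline library 4 labelled Lcn2-/-, no library held more than 5 of 13, and that library was highest for 41.4% of all genes.

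**Figure D4:**
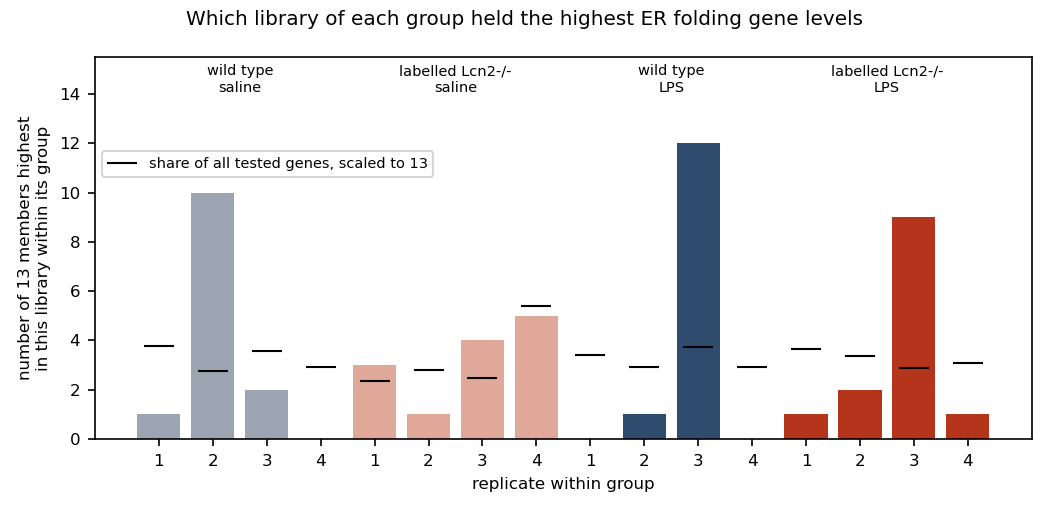
Number of the 13 ER folding genes for which each library (bars, by group and replicate) held the highest level of its group; lines mark the share of all genes tested for which it did so, scaled to 13. Wild type LPS library 3 reaches 12, wild type saline library 2 reaches 10 and LPS library 3 labelled Lcn2-/- reaches 9.

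Markers of other cell types also moved with LPS. Summed RPKM over 10 neutrophil markers was 3.28 to 9.57 and 5.24 to 7.69 in the wild type and labelled Lcn2-/- saline groups, and 11.1 to 17.6 and 11.3 to 28.7 in the LPS groups. Of these markers 5 were tested and 3 rose under each label, and Ltf, Mpo, Elane, Ly6g and Cxcr2 stayed below the filter. For endothelial markers, 8 of 8 tested, the sums were 90.4 to 102 and 78.1 to 90.7 in saline and 97.9 to 107 and 81.5 to 92.1 in LPS; with LPS, 2 rose and 5 fell under each label (median log2 change -0.43 and -0.42), and after LPS 1 was higher and 4 were lower under the Lcn2-/- label. The sums of 7 astrocyte markers were 499 to 514 and 484 to 507 in saline and 581 to 611 and 595 to 622 in LPS, where 3 of 7 rose and 0 fell by limma under each label (median 0.084 and 0.044). Microglial sums were 100.5 to 106 and 99.9 to 104 in saline and 86.2 to 97.3 and 88.2 to 98.3 in LPS, with 1 higher and 5 lower of 7 in wild type and 1 higher and 6 lower under the Lcn2-/- label, and those of choroid plexus 479.5 to 501, 479.9 to 658, 420 to 459 and 467.5 to 477. With LPS, 2 of 8 choroid plexus markers fell in wild type and 4 under the Lcn2-/- label. After LPS 1 of these was lower under that label than in wild type, as was 1 microglial marker, and 1 oligodendrocyte marker was higher. The interaction passed for 1 endothelial marker upward and 3 downward, and for 1 astrocyte marker upward. Of 7 neuron markers, 1 rose and 2 fell under the Lcn2-/- label. Of 7 oligodendrocyte markers 3 fell with LPS under each label, and 1 rose under the Lcn2-/- label. Of 4 monocyte markers tested, after LPS 1 was higher and 2 were lower under the Lcn2-/- label than in wild type, and the interaction passed for 1 in each direction. Of 3 markers of B and plasma cells tested, 2 fell with LPS in wild type and 1 under the Lcn2-/- label, and after LPS 1 was lower under that label than in wild type. Over all genes tested, 25.3% were called with LPS in wild type and 48.3% under the Lcn2-/- label. Between the labels after LPS 15.8% were called, and the interaction passed for 8.82%. The part of these cell types in the members' changes was not tested.

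Other genes of the same pathways, from lists fixed for the purpose, showed where the members stood among their partners. Over all genes tested, 11.4% rose and 13.9% fell in wild type, and 20.7% rose and 27.7% fell under the Lcn2-/- label. The interaction passed for 8.82% of all genes. A list whose counts lie near these shares shows no more than the series does as a whole. Of 12 eIF2 kinases and subunits of eIF2 and its exchange factor eIF2B, 2 rose in wild type and 7 under the Lcn2-/- label, with 0 lower. Eif2ak2, the kinase PKR that senses double-stranded RNA, rose by 1.04 and 1.48 on the log2 scale, and Eif2b2 rose by 0.31 and 0.57. Eif2s2 rose by 0.58 under the Lcn2-/- label, and its interaction passed (0.46, adjusted p = 0.0136), as did that of Eif2b4 (0.24, adjusted p = 0.0183; lost at 0.0707 with GC and length trends removed).

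Further partners and targets of ATF4 were tested for 19 of 21 genes, of which 6 rose and 2 fell in wild type, and 7 rose and 5 fell under the Lcn2-/- label. Cebpb, a partner factor and also an acute phase regulator, rose by 1.51 and 2.16, Ddit4 rose by 0.96 and 0.64, and Eif4ebp1, a repressor of translation, rose by 0.94 and 1.11, in wild type and under the Lcn2-/- label in that order. The amino acid transporter gene Slc7a5 fell by 0.34 and 0.51, and Vldlr fell by 0.42 and 0.49. Slc7a11, the cystine transporter, was the 1 gene of the list whose interaction passed (0.66, adjusted p = 0.00215). After LPS, Cebpg was lower under the Lcn2-/- label by 0.43 (adjusted p = 0.00887).

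Of 12 cytosolic aminoacyl-tRNA synthetases, which charge tRNA for translation, 0 passed in wild type by limma (2 at an unadjusted p under 0.05), 10 rose under the Lcn2-/- label and 5 passed the interaction. Eprs and Yars rose by 0.39 each under that label. Their interactions were 0.35 (adjusted p = 0.0369) and 0.32 (adjusted p = 0.0239), the first called in 15 of 24 alternatives and the second in 22. The Yars interaction was lost without wild type saline library 3 or wild type LPS library 1 (adjusted p 0.0537 at most). That of Eprs was lost without wild type saline library 2, 3 or 4, wild type LPS library 1 or 3 or LPS library 1, 2 or 3 labelled Lcn2-/- (adjusted p 0.0784 at most). After LPS, Cars was higher under the Lcn2-/- label by 0.25 (adjusted p = 0.00510).

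Among 19 genes of ER translocation and vesicle export, 3 rose and 3 fell in wild type, and 9 rose and 1 fell under the Lcn2-/- label. In wild type and under the Lcn2-/- label in that order, Sec24d rose by 0.50 and 0.25, Ssr3 rose by 0.32 and 0.26, and Spcs3 fell by 0.19 and 0.17. Sec11c fell by 0.30 in wild type (-0.044 and not called under the Lcn2-/- label), and Sec61b fell by 0.23 (-0.11 and not called). Sec23b rose by 0.35 under the Lcn2-/- label (0.18 and not called in wild type), and Ssr4 rose by 0.26 (0.024 and not called). The interaction passed for 3 of the 19, among them Sec11c (0.25, adjusted p = 0.0367) and Ssr4 (0.24, adjusted p = 0.0381). For Sec61b and Sec23b a call under 1 label is no test of a difference. The 19 further degradation genes had 2 higher and 0 lower in wild type, and 5 higher and 2 lower under the Lcn2-/- label. Among them Ube2j2 had a larger LPS effect under that label (0.48, adjusted p = 0.0176) and Edem3, a relative of Edem1, a smaller one (-0.54, adjusted p = 0.0294). The latter was lost without wild type saline library 3 or 4, wild type LPS library 1 or 3 or LPS library 2 or 3 labelled Lcn2-/- (adjusted p 0.0635 at most).

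Not every ER folding gene shared the rise of Hspa5. Of 23 further ER chaperones and oxidoreductases, 3 rose and 4 fell in wild type, and 4 rose and 5 fell under the Lcn2-/- label. Over all genes tested, 25.3% were called in wild type and 48.3% under that label. Dnajb11, a BiP co-chaperone, rose by 0.25 under the Lcn2-/- label, and its interaction of 0.21 (adjusted p = 0.0392) was called in 11 of 24 alternatives; among the losses were the removal of wild type saline library 2, 3 or 4, of any 1 wild type LPS library, and of saline library 3 or LPS library 2, 3 or 4 labelled Lcn2-/- (adjusted p 0.0835 at most). The interaction passed for 1 gene of this list in each direction, where 8.82% of all genes passed. In the other direction was Dnajc1, with a smaller LPS effect under the Lcn2-/- label (-0.355, adjusted p = 0.0229). Pdia5 fell by 0.60 and 0.45, and Fkbp14 rose by 0.30 and 0.31. Of 11 tested among 12 sensor relatives, ATF6 proteases and ER stress death genes, 4 rose in wild type, 8 rose and 2 fell under the Lcn2-/- label, and by limma 0 passed the interaction (3 at an unadjusted p under 0.05). Pmaip1, which encodes the death protein NOXA, rose by 2.12 and 1.97, and Casp12, an ER-associated caspase gene, rose by 0.77 and 1.49; the first Casp12 change was lost without any 1 of the 4 wild type saline or 4 wild type LPS libraries (adjusted p 0.0947 at most).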

How the data were processed

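RNA was sequenced from 16 hemi-brains in 4 groups of 4. The authors deposited 1 table of log2 RPKM values for 33289 Ensembl genes, which the name of the deposited table says were made with CQN (conditional quantile normalisation, a correction for GC content and length). The build was mm10 per the submitters' processing notes. Aligner, counter and annotation: not given in the sources used here. Since the table holds no counts, depth is unknown and no value has a counting interval. All 16 sample columns were matched to titles and used. In the text, RPKM is 2 to the power of the deposited value, and means and SDs are of those RPKM.

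Genes at a log2 RPKM of at least -1 in at least 3 samples were tested (17349; 15940 were removed). One group-means model with trended moderation was fitted to the log2 values of all 4 groups in limma 3.58.1 (R 4.3.3), with 5 two-sided contrasts, Benjamini-Hochberg adjustment over all genes tested and calls at an adjusted p under 0.05. Every adjusted p in the text is from it or from its alternatives. The code was tested on simulated data. Nothing in the labels says how samples of a group were raised or processed, and the p-values reflect no more than how far these samples differ, which may be technical. The alternatives were 2 pseudocounts, 2 filters, quantile normalisation, median centring, removal of GC and length trends, fits of only the groups compared, no moderation trend, and leaving out each library.

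Gene symbols, lengths and exon overlaps came from GENCODE vM21, which matched 32695 of the IDs (594 unmatched), and promoter windows from RefSeq (GRCm38.p6). All 33 members are reported. Genes of the other pathway lists are named where they were the largest calls of a list in a direction. The members, lists and rules were chosen with earlier results of these data known, and a promoter match is a description. The summed levels of 2 further marker lists are not reported here.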

Additional observations from a re-analysis of the deposited data

Results flagged for a closer look

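The LPS effect differed between the genotype labels for 8 of the 33 genes by the interaction test in limma. The difference, labelled Lcn2-/- minus wild type on the log2 scale, was 1.99 for Atf3, 0.53 for Ppp1r15a, 0.65 for Hspa5, 0.33 for Hsp90b1, 0.29 for Pdia3, 0.37 for Pdia6, 0.46 for Manf and -0.55 for Ern1.

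In 7 of 132 combinations of gene and group, 1 library lay far from the other 3 of its group, where chance alone gives about 1 in 20, or 6.60. Saline library 4 labelled Lcn2-/- accounted for 3 of them, with the lowest Canx (55.5 RPKM), the lowest Herpud1 (17.5 RPKM) and the highest Pdia4 (8.76 RPKM) of its group. Wild type LPS library 3 had the highest Hyou1 (8.93 RPKM) and the highest Dnajc3 (14.8 RPKM) of its group. In the LPS group labelled Lcn2-/-, library 1 had the highest Sesn2 (3.81 RPKM) and library 2 the lowest Creld2 (7.01 RPKM).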

How the results depend on the processing

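No direction of a call among the members was reversed in any alternative; 3940 values for single members kept their side of the threshold, 98 lost the call and 39 gained it. Leaving out 1 library at a time, 7 to 11 members were higher after LPS in wild type and 2 to 5 lower. Under the Lcn2-/- label 16 to 20 were higher and 2 to 4 lower. After LPS, 8 to 15 were higher and 1 to 3 lower than in wild type, and the interaction passed for 6 to 9 with a larger effect. Fitting only the groups compared left 2 of the 4 members that fell under the Lcn2-/- label. The stricter filter, which did not test Ern1, left 0 members lower after LPS than in wild type and 0 with a smaller effect by interaction, and without the moderation trend 2 were lower than in wild type after LPS. The cause of the other shifts was not tested.

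Over all genes, the count without a filter was 11480 lower in wild type against 2409, and 13898 against 4798 under the Lcn2-/- label. The same setting gave 418 genes with a larger and 487 with a smaller effect by interaction, against 677 and 853, and 2 higher and 1 lower after saline against 6 and 2. Fitting only the LPS groups gave 2088 higher and 2305 lower between the labels, against 1222 and 1517. Leaving out single libraries moved that comparison between 710 and 2375 higher and between 801 and 2794 lower, the least without LPS library 3 and the most without saline library 4 labelled Lcn2-/-. It moved the interaction between 351 and 1049 and between 389 and 1221. For LPS against saline in wild type it gave 1676 to 2582 genes higher and 1926 to 3436 lower. Under the Lcn2-/- label the same ranges were 3114 to 3598 and 4193 to 4867.

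No paired analysis was possible because the titles number the samples from 1 to 16, 1 of them with a letter added, and give no number shared between groups. Depth is unknown, the numbers of libraries limit the precision, and genes near 0.5 RPKM such as Atf3 and Trib3 depend most on the scale.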
